A study of Rattus norvegicus with 4 samples.

Results

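Striated muscle contracts as thick filaments of myosin slide along thin filaments of actin, and the thick filaments are held in register at the middle of the sarcomere by the M-band. The genes described here are 3 myosin heavy chains (Myh6, Myh7 and Myh7b), the thick filament protein gene Mybpc3, and the M-band genes Myom1 and Myom2. They were chosen by symbol, and all 6 were found among the 15731 genes with deposited RPKM values, a unit in which reads are divided by gene length and by library size. Myh6 codes for α-myosin heavy chain, the fast isoform that prevails in the adult rodent ventricle, and Myh7 for β-myosin heavy chain, the slow isoform of the fetal ventricle that comes back under overload. The balance of Myh6 and Myh7 is therefore widely used as a readout of cardiomyocyte maturation and stress in rodents.

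The libraries came from cultured ventricular cardiomyocytes of wild type Wistar rats labelled as postnatal day 1, although a protocol in the labels gives an earlier day. The cells were transfected with mimics of hsa-miR-25-3p, hsa-miR-93-5p or hsa-miR-106b-5p, and the worm miRNA cel-miR-67 served as control. RNA was collected 72 h after transfection, and the mimic dose is given both as 25 nM and as 25 mM in the sample labels. There was 1 library for each of the 4 mimics, so no difference below has a replicate check, and how many animals gave the cells is not given in the sources used here.

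The seed of a miRNA, bases 2 to 8, pairs with its target RNAs, so the sequences of the 3 transfected miRNAs of one genomic cluster are shown with the seed in capitals. They are the rat miRNAs of the same names, from RefSeq on build GRCr8, and all lie in Mcm7 on the minus strand. The sequence of miR-106b is at chr12:22157103-22157123, that of miR-93 at chr12:22156894-22156916 and that of miR-25 at chr12:22156652-22156673.
rno-miR-106b-5p: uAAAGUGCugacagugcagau
rno-miR-93-5p: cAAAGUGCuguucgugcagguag
rno-miR-25-3p: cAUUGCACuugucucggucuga

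The seed AAAGUGC is common to miR-106b and miR-93, and miR-25 has the seed AUUGCAC. Each of the 3 myosin heavy chain genes is itself the host of a miRNA, and these are shown because the host genes are the ones measured here. By the same annotation, Mir208a lies within Myh6 (chr15:32395568-32395585, minus strand), Mir208b within Myh7 (chr15:32421648-32421665, minus strand) and Mir499a within Myh7b (chr3:164570616-164570636, plus strand). Myh6 and Myh7 are direct neighbours among protein-coding genes.
rno-miR-208a-3p: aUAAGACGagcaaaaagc
rno-miR-208b-3p: aUAAGACGaacaaaaggu
rno-miR-499-5p: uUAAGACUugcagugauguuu

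The hosted miRNAs of Myh6 and Myh7 have the seed UAAGACG, and that of Myh7b has the seed UAAGACU. The levels of the hosted miRNAs were not analysed here.

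In the miR-25 library all 6 genes were lower than in the cel-miR-67 library, from 1.49-fold for Myom1 to 11.6-fold for Myom2. Of all genes tested, 22.6% were past 1.3-fold lower in that library. However, when values were centred on cardiomyocyte markers only Myom2 and Myh7b stayed past 1.3-fold and Myom1 turned to slightly higher. In the miR-106b library Myom2 was 2.54-fold and Myh6 1.35-fold lower, while Myh7, Myh7b, Mybpc3 and Myom1 were within 1.3-fold of the control. The Myh6 value no longer passed 1.3-fold when scaled to the reads on listed genes (-0.35 on the log2 scale) or centred on cardiomyocyte markers (-0.30). In the miR-93 library Myom2 was 1.43-fold lower and the other 5 genes were within 1.3-fold. Past 1.3-fold, 12.7% of all genes tested were lower after miR-106b and 15.6% after miR-93. The Myh6 to Myh7 ratio was 1.07 in the control library, and it was lower in the libraries of miR-25 and miR-106b and higher in that of miR-93.

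The reads behind each RPKM value were taken as the smallest whole numbers that give it, which made 15175185 to 18797234 reads on listed genes per library. The 6 genes held 2.6% of these reads in the control library and 1.63% in the miR-25 library, with 2.44% for miR-106b and 2.77% for miR-93. Tnnt2, the cardiac troponin T gene and a defining cardiomyocyte marker, was at an RPKM of 1750 to 2433 in every library. Markers of endothelial cells summed to an RPKM of at most 8.56 and those of macrophages and leukocytes to at most 19.2, whereas fibroblast markers summed to 350 to 852 and smooth muscle markers to 596 to 2067. In such bulk RNA, fewer cells of a type and less RNA per cell cannot be told apart.

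Fold changes below are ratios of RPKM values, mimic over cel-miR-67, and a gene was called when it passed 1.3-fold with an RPKM above 1.0 in both libraries. The intervals in parentheses are 95% exact intervals from the reads, which cover counting error only and leave out the differences between cultures. All 3 comparisons use the same control library.

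Myh6 had an RPKM of 1307 in the control, 663 after miR-25, 968 after miR-106b and 1362 after miR-93, from 108924 to 224185 reads. The control and miR-93 libraries stood together at the top, miR-106b was lower and miR-25 lowest. The log2 fold change of Myh6 was -0.98 for miR-25 (-0.99 to -0.97), -0.43 for miR-106b (-0.44 to -0.42) and 0.059 for miR-93 (0.050 to 0.068). The miR-93 and miR-106b mimics carry the same seed, and Myh6 was 1.41-fold higher with the former, which ranked 455 from the highest of the 11391 genes tested between these libraries.

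Myh7 had an RPKM of 1226 in the control, 778 after miR-25, 1233 after miR-106b and 1137 after miR-93. The miR-25 library was the one that stood apart for Myh7, with a log2 fold change of -0.66 (-0.67 to -0.64). For miR-106b the value was 0.0084, with an interval of -0.00085 to 0.018 that includes 0, and it was 0.09 when scaled to the reads on listed genes and 0.14 when centred on the cardiomyocyte markers, each within 1.3-fold. For miR-93 it was -0.11 (-0.12 to -0.10), within the 1.3-fold limit and turning to 0.04 when libraries were scaled to the reads on listed genes.

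**Figure D1:**
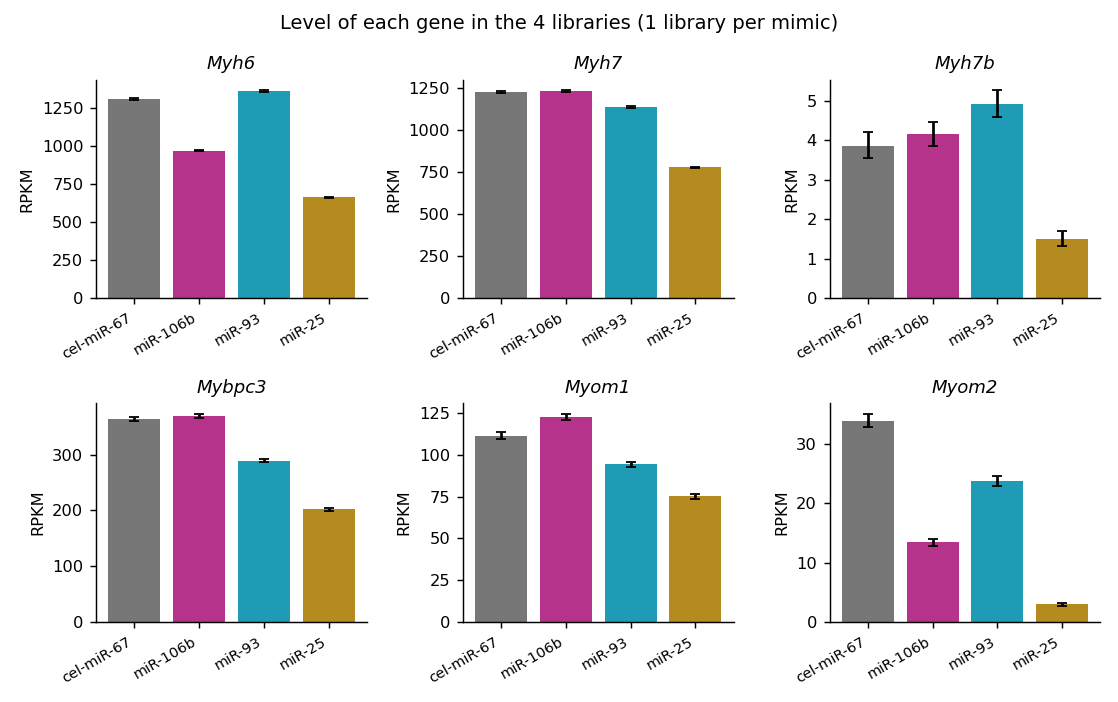
RPKM (vertical axis, from 0, scaled for each gene) of the 6 genes in the libraries of cel-miR-67 (grey), miR-106b (magenta), miR-93 (cyan) and miR-25 (dark yellow), 1 library each, with bars for the value and error bars for the 95% exact Poisson interval of the reads. The miR-25 bar is the lowest for every gene as deposited, and for Myom2 it stands at 2.94 against 34.0 in the control.

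Both transcripts were among the most abundant of the culture, with Myh6 at rank 16 and Myh7 at rank 17 of all genes by RPKM in the control library. After miR-25 they stood at ranks 36 and 25. The summed RPKM of Myh6 and Myh7 was 2533 in the control library, and it was 1441 after miR-25, 2202 after miR-106b and 2499 after miR-93, which is 0.569, 0.869 and 0.986 of the control. As deposited, the total of the main heavy chains was thus close to the control for miR-93 and lowest for miR-25. Centred on the cardiomyocyte markers, the log2 fold changes of Myh6 and Myh7 were 0.44 and 0.27 for miR-93. For miR-25 they were then -0.35 and -0.02.

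The ratio of Myh6 to Myh7 is taken within a library, so it does not depend on how the libraries were scaled. Per length, the ratio was 1.07 in the control (1.06 to 1.07), 0.852 after miR-25 (0.845 to 0.859), 0.785 after miR-106b (0.780 to 0.790) and 1.20 after miR-93 (1.19 to 1.20). Myh6 exceeded Myh7 in the libraries of the control and miR-93, and Myh7 exceeded Myh6 in those of miR-25 and miR-106b. Written as the share of Myh6 in the sum of both, the libraries stood at 51.6%, 46.0%, 44.0% and 54.5% in the same order.

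Relative to the control, the ratio changed by a factor of 0.799 for miR-25 (0.791 to 0.807), 0.737 for miR-106b (0.730 to 0.743) and 1.12 for miR-93 (1.11 to 1.13). None of these exact intervals includes 1, and they again hold counting error alone. As deposited, the makeup of the lower ratio differed between the libraries of miR-106b and miR-25. In the miR-106b library Myh6 was lower and Myh7 level with the control, whereas in the miR-25 library both were lower and Myh6 more so. This makeup depends on the scaling. Centred on the cardiomyocyte markers, Myh6 and Myh7 were at -0.35 and -0.02 for miR-25 and at -0.30 and 0.14 for miR-106b. The ratio after miR-93 was 1.52 times that after miR-106b (1.51 to 1.54), the widest of the 6 pairs of libraries. Myh6 and Myh7 are closely related in sequence, and how reads that match both were counted is not given in the sources used here, so their levels are uncertain to that extent.

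**Figure D2:**
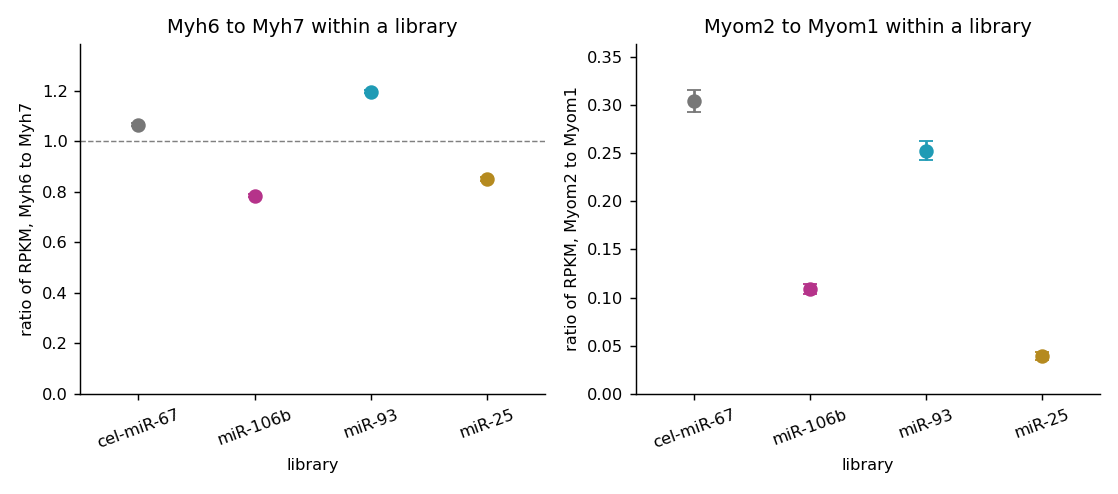
Ratio of RPKM values (vertical axes, from 0) of Myh6 to Myh7 (left) and of Myom2 to Myom1 (right) within each of the 4 libraries, with points for the ratio, error bars for the 95% exact interval of the reads (smaller than the points on the left), and a dashed line at equal levels of Myh6 and Myh7. The left ratio lies above 1 for cel-miR-67 (1.07) and miR-93 (1.20) and below 1 for miR-106b (0.785) and miR-25 (0.852), and the right one is 0.304 in the control and 0.0390 after miR-25.

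Myh7b codes for a slow-type myosin heavy chain whose transcript is scarce in heart muscle. It had an RPKM of 3.86 in the control, 1.51 after miR-25, 4.16 after miR-106b and 4.92 after miR-93, from 251 to 820 reads. The miR-25 library was lowest and 2.56-fold below the control, with a log2 fold change of -1.35 (-1.58 to -1.14). The value for miR-106b was 0.11 with an interval that includes 0 (-0.06 to 0.27), and that for miR-93 was 0.35 (0.19 to 0.51), which is 1.27-fold and so below the limit. Per length, Myh7b stood at 0.152% of the sum of Myh6 and Myh7 in the control library and at 0.105% after miR-25, with 0.189% for miR-106b and 0.197% for miR-93. After miR-25, Myh7b was thus also low relative to the main heavy chains.

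Mybpc3 codes for cardiac myosin-binding protein C, which sits along the thick filament, restrains the myosin heads and is often mutated in inherited cardiomyopathy. Its RPKM was 364 in the control, 202 after miR-25, 370 after miR-106b and 289 after miR-93. The control and miR-106b libraries were nearly level, miR-93 lay below them and miR-25 lowest. The log2 fold change of Mybpc3 was -0.85 for miR-25 (-0.87 to -0.82), or 1.80-fold lower, and 0.022 for miR-106b (0.0022 to 0.043). For miR-93 it was -0.33 (-0.35 to -0.31), which is 1.26-fold lower and turned to 0.05 when centred on the cardiomyocyte markers. Set against the sum of Myh6 and Myh7, Mybpc3 stood at 14.4% in the control and 14.0% after miR-25, with 16.8% for miR-106b and 11.6% for miR-93.

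Myom1 codes for myomesin 1, the main crosslinker of thick filaments in the M-band, and its RPKM was 112 in the control, 75.2 after miR-25, 123 after miR-106b and 94.4 after miR-93. Its log2 fold change was 0.14 for miR-106b (0.11 to 0.17) and -0.57 for miR-25 (-0.61 to -0.53), and for miR-93 it was -0.24 (-0.28 to -0.21), turning to 0.14 when centred on the cardiomyocyte markers. At 1.49-fold, Myom1 was the least changed of the 6 genes after miR-25 as deposited, whereas centred on the cardiomyocyte markers it was at 0.06 and Myh7 was the least changed, at -0.02.

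Myom2 codes for myomesin 2, also called M-protein, an M-band crosslinker of fast skeletal muscle and of the heart. Its RPKM was 34.0 in the control, 2.94 after miR-25, 13.4 after miR-106b and 23.8 after miR-93, from 3478, 361, 1800 and 2938 reads. All 3 mimic libraries lay below the control, with miR-93 nearest to it and miR-25 furthest. The log2 fold change of Myom2 was -3.53 for miR-25 (-3.69 to -3.38), -1.34 for miR-106b (-1.42 to -1.26) and -0.51 for miR-93 (-0.58 to -0.44). Counted from the lowest log2 fold change, Myom2 ranked 3 among the 11198 genes tested for miR-25, 45 among 11296 for miR-106b and 1140 among 11280 for miR-93.

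The Myom2 to Myom1 ratio compares the crosslinkers within a library. It was 0.304 in the control (0.293 to 0.316), 0.0390 after miR-25 (0.0350 to 0.0433), 0.109 after miR-106b (0.104 to 0.114) and 0.253 after miR-93 (0.243 to 0.263). Myom1 exceeded Myom2 3.29-fold in the control library and 25.6-fold after miR-25. Relative to the control the ratio changed by a factor of 0.128 for miR-25 (0.114 to 0.143), 0.358 for miR-106b (0.337 to 0.381) and 0.830 for miR-93 (0.785 to 0.877). The order of the libraries was not that of the Myh6 to Myh7 ratio, where miR-106b was lowest and miR-93 above the control.

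**Figure D3:**
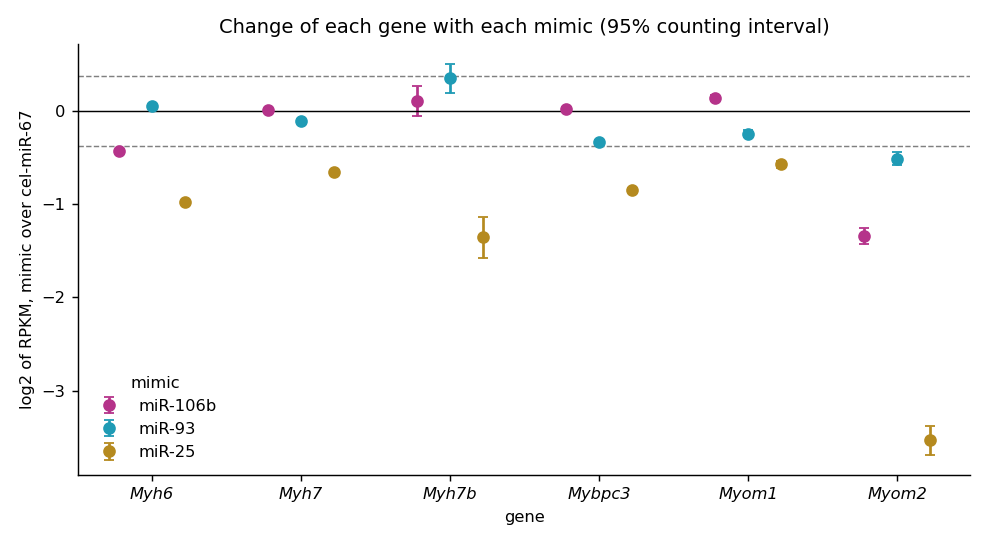
Log2 of the RPKM ratio of each mimic over cel-miR-67 (vertical axis) for the 6 genes (horizontal axis), with points in dark yellow (miR-25), magenta (miR-106b) and cyan (miR-93), error bars for the 95% exact interval of the reads, and dashed lines at 1.3-fold in either direction. All 6 points of miR-25 lie below the lower line as deposited, though Myom1 turned to 0.06 when centred on cardiomyocyte markers, and Myom2 reaches -3.53 for miR-25 and -1.34 for miR-106b.

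Past 1.3-fold, 2 of the 6 genes were lower and 0 higher after miR-106b, where 12.7% of all genes tested were lower and 11.9% higher. After miR-93, 1 gene was lower and 0 higher, against a background of 15.6% lower and 15.1% higher. After miR-25, 6 of the 6 genes were lower and 0 higher, against 22.6% of all genes lower and 19.3% higher. The median log2 fold change of the 6 genes was -0.91 for miR-25, 0.015 for miR-106b and -0.18 for miR-93, where that of all genes tested was -0.012, -0.003 and -0.002. Centred on the cardiomyocyte markers, the counts were 2 lower and 0 higher for miR-25, and 1 lower and 0 higher for miR-106b. For miR-93 they were 0 lower and 2 higher. The counts thus depend on the scaling, whereas the order among all genes does not, since every gene is shifted by the same constant. The share of all genes called under this centring was not computed.

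Between the mimics themselves, 6 genes were lower and 0 higher with miR-25 than with miR-106b, against 23% of genes lower and 22.1% higher. Relative to miR-93, 5 genes were lower with miR-25 and 0 higher, against 23% lower and 22.1% higher, with Myom1 at -0.33 as the exception. Myom2 was 4.57-fold lower with miR-25 than with miR-106b and 8.12-fold lower than with miR-93. Between miR-93 and miR-106b, 2 genes were higher with miR-93 (Myh6 and Myom2, the latter 1.78-fold) and 1 lower (Myom1, at -0.38 and just past the limit), against 7.3% of genes higher and 8.21% lower.

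**Figure D4:**
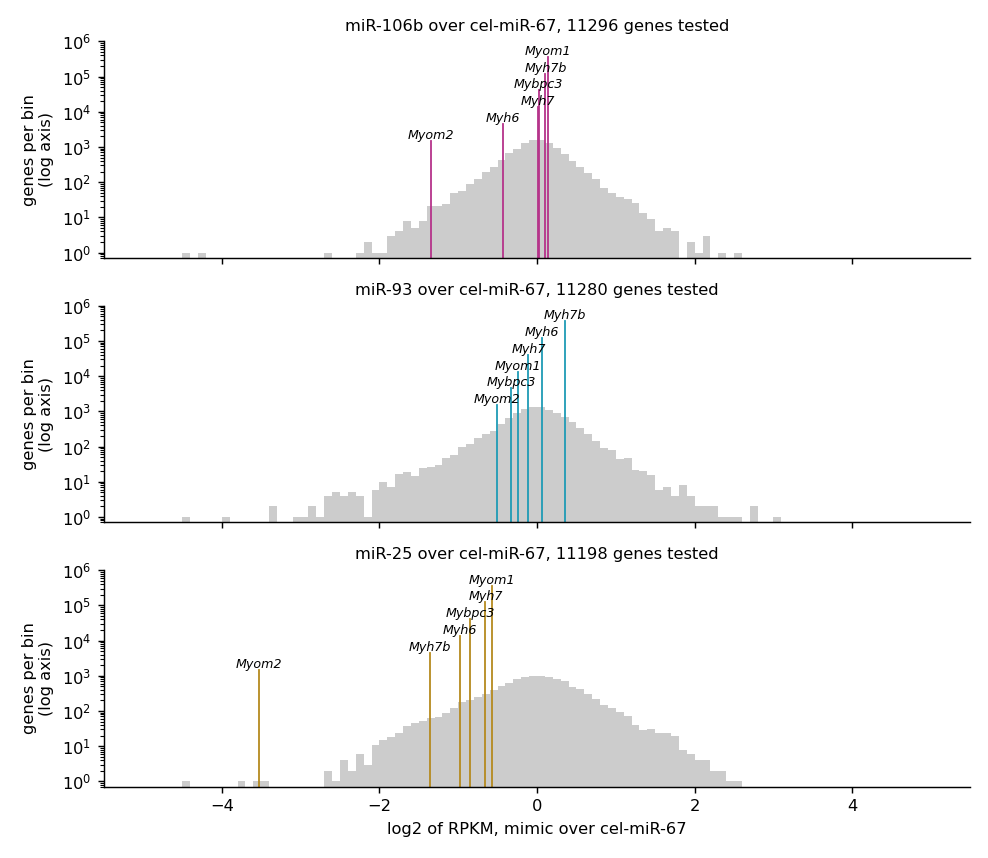
Histogram of the log2 RPKM ratio over cel-miR-67 (horizontal axis) of all genes with RPKM above 1.0 in both libraries, for miR-106b (11296 genes, top), miR-93 (11280, middle) and miR-25 (11198, bottom), with the number of genes per bin on a log axis and coloured lines at the 6 genes (their heights carry no value). In the bottom panel the 6 genes lie left of 0 as deposited (Myom1 turned to 0.06 when centred on cardiomyocyte markers) and Myom2 sits at -3.53 in the sparse left tail, while in the middle panel they spread from -0.51 to 0.35 around the peak.

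Other cardiomyocyte genes were also lower after miR-25. As background for this list and those below, 22.6% of all genes tested were lower and 19.3% higher after miR-25. These shares were 12.7% and 11.9% after miR-106b, and 15.6% and 15.1% after miR-93. All 10 cardiomyocyte markers were past 1.3-fold lower, with a median log2 fold change of -0.63 and a summed RPKM of 8868 against 14011 in the control, and none was at 0. Tnnt2 was at -0.48, Tnnc1, the cardiac troponin C gene, at -1.14, Actc1, cardiac α-actin, at -0.51, and Tnni1, slow skeletal troponin I, at -0.74. Tnni3, the cardiac troponin I gene and named after its values were seen, was at -4.47.

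When the fold changes were centred on the median of these markers, 2 of the 6 genes stayed past 1.3-fold lower after miR-25, which were Myom2 at -2.90 and Myh7b at -0.72. Myh6 was then at -0.35, Mybpc3 at -0.21, Myh7 at -0.02 and Myom1 at 0.06. Relative to the marker genes, Myh7 and Myom1 were thus near the control level.

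After miR-106b 3 of the markers were lower (Tnnc1, Actc1 and Ryr2) and 1 higher (Tnni3), with a median of -0.13 and a summed RPKM of 11290. After miR-93 5 were lower (Tnnc1, Actc1, Actn2, Ryr2 and Csrp3) and 1 higher (Tnni3), with a median of -0.38 and a sum of 8055. Centred on them, Myh6 and Myh7b were past 1.3-fold higher after miR-93, at 0.44 and 0.73, and Myh7 was at 0.27. A scaling to the reads on listed genes moved the log2 values of all genes up by 0.15 for miR-25 and miR-93 and 0.08 for miR-106b. Under it, Myh6 after miR-106b and Myom2 after miR-93 no longer passed 1.3-fold, at -0.35 and -0.37, and Myh7b after miR-93 did, at 0.50.

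Markers of other cell types also moved between libraries, and their part in the results was not tested. Of 6 smooth muscle markers, 5 were higher and 1 (Smtn) lower after miR-25, with a median of 1.21, and the most abundant were Tagln at 1.45, Acta2 at 1.43, Cnn1 at 1.65 and Myh11 at 0.99. Their summed RPKM was 2067 after miR-25 and 758 in the control. The sum was 700 after miR-106b, with Cnn1 higher and Myh11 lower, and 596 after miR-93, with Cnn1 and Myh11 lower. Several of these genes are also expressed by immature cardiomyocytes and activated fibroblasts.

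Of 10 fibroblast markers, 7 were lower and 1 (Lum) higher after miR-25, with a summed RPKM of 350 against 852 in the control, where Col1a2 was at -1.87, Col3a1 at -1.33, Postn at -1.31 and Col1a1 at -0.64. Both other mimics had 5 of them lower and 0 higher, with sums of 664 for miR-106b and 767 for miR-93. Of 8 endothelial markers 3 were tested, with Kdr higher and Tek and Egfl7 lower after miR-25, Kdr higher and the same pair lower after miR-106b, and Kdr higher and Egfl7 lower after miR-93. Of 8 macrophage and leukocyte markers 4 were tested for miR-25, with Csf1r and C1qa lower, and 5 for each other mimic, with Lyz2 lower in both and Cd68 higher after miR-93. Of 8 skeletal muscle markers 4 were listed once and 1, Ckm, was tested, and Tnnt3 was at 0 in the control.

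**Figure D5:**
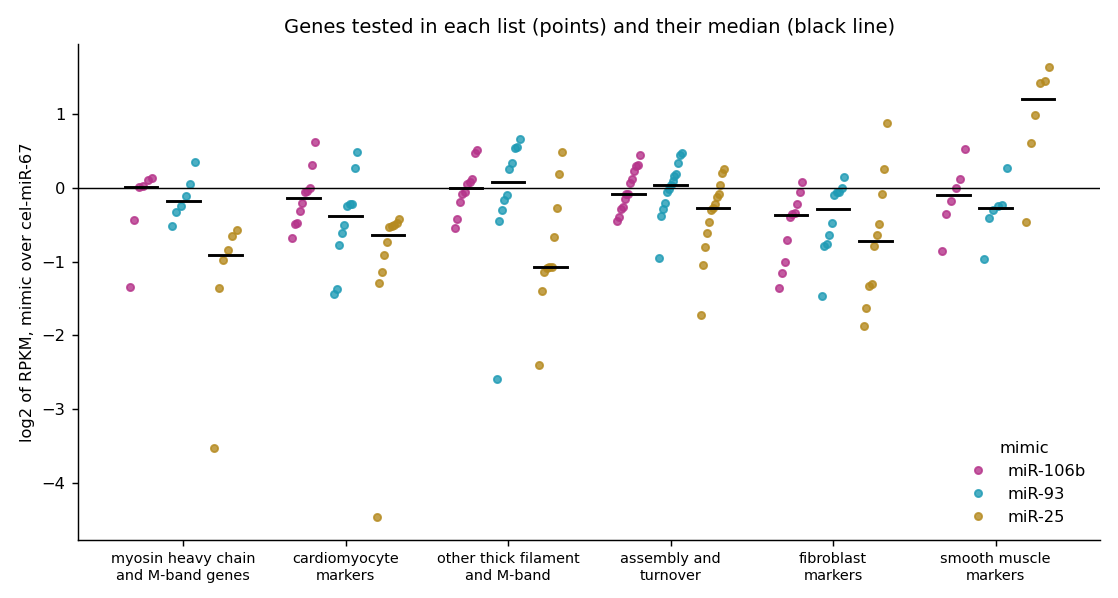
Log2 of the RPKM ratio over cel-miR-67 (vertical axis) for the 6 genes described here and for 5 lists of genes (horizontal axis), with a point for each gene tested in dark yellow (miR-25), magenta (miR-106b) or cyan (miR-93) and a black line at the median. The miR-25 medians lie at -0.91 for the 6 genes, -0.63 for cardiomyocyte markers, -1.08 for other thick filament and M-band genes and 1.21 for smooth muscle markers.

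Other genes of the thick filament and the M-band were also lower after miR-25. Of 16 such genes 13 were listed once and 10 tested, and 7 were lower and 1 (Mybpc2) higher, with a median of -1.08. The ventricular myosin light chains Myl2 and Myl3 were at -1.07 and -1.08, Ckm, the muscle creatine kinase that docks at the M-band, at -2.41, and Fhl2, a LIM protein that tethers metabolic enzymes in the sarcomere, at -1.40. After miR-106b Fhl2 and Obsl1 were higher and Mybpc2 and Cmya5 lower, and after miR-93 Fhl2, Obsl1 and Ckm were higher and Mybpc2 and Myl2 lower. Fhl2 stood at 0.52 for miR-106b and 0.67 for miR-93, Ckm at -0.08 and 0.56, Myl2 at 0.08 and -0.45, and Myl3 at -0.19 and -0.09.

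Mybpc2, the fast skeletal paralogue of Mybpc3 and named after its values were seen, had an RPKM of 18.0 in the control, 25.0 after miR-25, 13.4 after miR-106b and 2.98 after miR-93. Mybpc2 was thus lowest after miR-93 and highest after miR-25, an order that Mybpc3 did not share. Myom3, the third myomesin gene, was at an RPKM of 0.797 in the control and 0.365 after miR-25, with 1.14 for miR-93 and 1.03 for miR-106b. Myom3 was not tested.

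Of 4 ventricular markers, 3 (Myl2, Myl3 and Irx4) were lower after miR-25, where the transcription factor gene Irx4 was at -1.78 and Hey2 at 0.07. Irx4 was higher after miR-106b, at 0.63, and after miR-93, at 1.03, and among these markers Myl2 was lower after miR-93. Of 5 atrial markers tested, Nppa was higher and Myl7 and Kcnj3 lower after miR-25. Myl7 and Myl4, the atrial light chains, were higher after miR-106b, at 2.11 and 1.66, with Sln and Kcnj3 lower. They were also higher after miR-93, at 3.04 and 0.85, with Nppa and Sln lower. After miR-25 the light chains stood at -0.70 and 0.12, and Sln, the sarcolipin gene, was at -0.47 for miR-106b, -0.50 for miR-93 and -0.19 for miR-25.

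Among the other sarcomeric heavy chains, 3 of 7 were listed once, and each was at an RPKM under 1.0 in the control library and so not tested. Myh3, the embryonic heavy chain, had an RPKM of 0.541 in the control, 3.38 after miR-25, 2.68 after miR-106b and 0.170 after miR-93, from 74, 556, 482 and 28 reads. The RPKM of Myh3 was 6.25-fold that of the control for miR-25 (4.90 to 8.08) and 4.96-fold for miR-106b (3.88 to 6.43), while for miR-93 it was 0.314 of the control (0.196 to 0.491). Myh3 was thus above the control in the libraries whose Myh6 to Myh7 ratio was below it, although it stayed scarce beside both. Myh1 was at an RPKM of 0.128 to 0.274 in all libraries and Myh8 at 0.0413 or less, and 4 other heavy chains were not analysed here.

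Of 4 heavy chains of non-muscle cells and smooth muscle, 2 (Myh11 and Myh14) were lower after miR-106b and after miR-93, and the same 2 were higher and Myh9 lower after miR-25. The non-muscle heavy chain Myh9 was at -0.45 for miR-25, -0.10 for miR-106b and 0.06 for miR-93, with Myh10 at -0.30, 0.11 and 0.08. The smooth muscle heavy chain Myh11 was at 0.99, -0.86 and -0.41, and Myh14 at 0.89, -1.10 and -0.80. As deposited, Myh11 and Myh14 were thus higher in the miR-25 library, where the sarcomeric chains Myh6, Myh7 and Myh7b were lower. Centred on the cardiomyocyte markers, Myh7 was at -0.02 there. In the miR-106b library Myh6 was lower, at -0.43, together with Myh11 and Myh14.

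Genes linked to thick filament assembly and turnover were tested as a list of 13, and those outside the 4 most abundant were named after their values were seen. After miR-25, 5 were lower and 0 higher, with a median of -0.27. These were Smyd1 (-1.72), the muscle methyltransferase needed for thick filament assembly, Murc (-1.05), Trim63 (-0.81), the MuRF1 ligase that marks myosin heavy chain for breakdown, Smyd2 (-0.61) and Trim54 (-0.47). The chaperones Hsp90ab1 and Hsp90aa1 were at -0.09 and 0.04 and the ligase gene Trim55 at -0.30. After miR-106b Smyd1 and Murc were lower and Naca higher, and after miR-93 Smyd2 and Murc were lower and Trim54 and Fbxo32 higher.

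Of 23 genes of factors known to bind or regulate the Myh6 and Myh7 genes, 21 were tested, and those other than Hand2, Mef2a, Parp1 and Hdac2 were named after their values were seen. After miR-25, 2 were higher (Nkx2-5 at 0.88 and Pura at 0.73) and 5 lower (Hand2 at -0.94, Hopx, Klf15, Mef2d and Egr1), with a median of -0.04. As 22.6% of all genes tested were lower and 19.3% higher, the count of lower genes was near the share of all genes. After miR-106b Parp1 was higher, at 0.61, and Mef2d lower, and after miR-93 10 were higher and 0 lower, with medians of 0.12 and 0.30. Mef2a was at 0.30 for miR-25, 0.28 for miR-106b and 0.39 for miR-93, Hand2 at 0.37 and 0.56 for the last pair, and Hdac2 between -0.02 and 0.21. Thra, the main thyroid hormone receptor gene of the heart, was at 0.22 for miR-25, -0.03 for miR-106b and 0.48 for miR-93.

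Myh7 is commonly measured together with natriuretic peptides as a sign of hypertrophic stress. Of 7 genes of this kind, 6 were lower and 1 (Atp2a2) higher after miR-93, 3 (Ankrd1, Xirp2 and Rcan1) lower and 0 higher after miR-106b, and 2 (Ankrd1 and Atp2a2) lower and 1 (Nppa) higher after miR-25. Atp2a2, the sarcoplasmic calcium pump gene that usually goes down in such stress, was named after its values were seen and stood at -2.03 for miR-25. Nppa, the gene of atrial natriuretic peptide, had an RPKM of 1860 in the control, 4425 after miR-25, 1607 after miR-106b and 261 after miR-93. Nppb was at 0.08 for miR-25, -0.14 for miR-106b and -2.61 for miR-93, skeletal α-actin Acta1 at 0.33, -0.32 and -1.79, and the stretch-responsive Ankrd1 at -0.48, -0.67 and -1.66. Myh7 thus stood at -0.11 for miR-93, where Nppa was at -2.83, and at -0.66 for miR-25, where Nppa was at 1.25.

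The profile of each gene over the 4 libraries was compared with those of genes above an RPKM of 10 in all 4. The measure was the Euclidean distance between log2 values centred on their mean. Myh6 was nearest to Phyh (distance 0.0763), Ctsc (0.110) and AC115371.1 (0.124). Myh7 was nearest to Cct7 (0.0275), Foxred1 (0.0324) and Timm10 (0.0452), and 166 genes lay within 0.2 of Myh7, so its profile is a common one among the genes compared. Mybpc3 was nearest to Cacnb2 (0.0288), a calcium channel subunit gene, Mrpl27 (0.0792) and Rabggtb (0.0825), and Myom1 to Rpl31 (0.0354), LOC100151767 (0.0438) and LOC100911238 (0.0480). Isca1 (0.0922) and Aars (0.225) were among the genes nearest to Myh7b. Myom2 had 0 genes within 0.2, and its nearest were Art3 (0.806), G0s2 (0.960) and Ckm (1.01), which were at -2.49, -2.64 and -2.41 for miR-25. Myom2, at an RPKM of 2.94 after miR-25, and Myh7b, at most 4.92, did not pass the limit of 10 themselves. Genes that fell as far as Myom2 from a similar level were thus left out, and the limit of 0.2 took no account of the size of the changes. How rare the profile of Myom2 is cannot be told from its count of 0. These distances rest on 4 libraries of 1 sample each.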

How the data were processed

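RNA of 4 neonatal rat cardiomyocyte cultures was sequenced after Illumina TruSeq library preparation, with 1 library per mimic. The authors trimmed the reads with Cutadapt, mapped them to Rnor_6.0 with STAR 2.7 (version and build per the labels' processing notes) and deposited RPKM values made from rounded gene counts with edgeR. The counting program is not given in the sources used here. The values given for each sample were identical to the table of the whole series in 4 of 4 libraries.

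Whole reads, gene lengths and library sizes were computed from the RPKM values, since a gene's values in different libraries stand in a ratio of whole numbers. For 15731 of 15731 genes this rebuilt the deposited values within a relative error of 9.1e-14. The implied library sizes of 22674410 to 29749467 reads were not whole numbers, and what scaling gave them is not stated in the sources used here. Listed genes held 60.4% to 66.9% of these sizes. The smallest whole numbers in that ratio were taken, multiplied by a common factor for 654 genes to give whole gene lengths, so rebuilding the values does not fix the reads of every gene. In tests on simulated data most genes, but not all, came back with their exact reads. Library sizes were sought only within a preset range. The paper's methods give far fewer reads per sample than the implied sizes, and this difference was not resolved. All counting intervals rest on the recovered reads.

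No test between conditions is possible with 1 library each. Genes were called past 1.3-fold with RPKM above 1.0 in both libraries, with no pseudocount. A ratio of genes has a Clopper-Pearson interval, and its change between libraries an exact conditional interval of the odds ratio. Symbols listed more than once (176) were left out of the lists. The genes and lists were chosen with earlier results of these data known. Named genes are the 6 described, the 4 most abundant tested genes of each list, the 3 genes nearest in profile to each of the 6, and those marked as named after their values were seen or given in parentheses beside a count. One gene that this rule names is not reported here. The alternatives tried were an RPKM limit of 2.0 or none, fold limits of 1.5 and 2, a pseudocount of 0.1 or 1, other scalings (all tested genes, cardiomyocyte markers or the reads on listed genes), and ratios of reads. Coordinates of miRNAs are those of RefSeq on GRCr8, and gene positions of that annotation served only to find host and neighbouring genes. Analyses ran in Python 3.11.15 with pandas 2.3.3, scipy 1.17.1, numpy 2.4.6 and matplotlib 3.10.9.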

Additional observations from a re-analysis of the deposited data

How the results depend on the processing

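The counts of called genes were 6 lower after miR-25, 2 lower after miR-106b and 1 lower after miR-93. Of all genes tested, 22.6%, 12.7% and 15.6% were lower. The share of all genes called was not computed under the other settings, so the counts below have no background beside them. A fold limit of 1.5 gave 5 lower after miR-25, without Myom1, 1 after miR-106b and 0 after miR-93, and a limit of 2 gave 2 lower after miR-25, 1 after miR-106b and 0 after miR-93. Scaling to the reads on listed genes gave 1 lower after miR-106b, and 0 lower and 1 higher after miR-93. Centring on the cardiomyocyte markers gave 2 lower after miR-25, 1 lower after miR-106b, and 0 lower and 2 higher after miR-93, and it turned Myom1 after miR-25 from a log2 fold change of -0.57 to 0.063. An RPKM limit of 2.0 gave 5 lower after miR-25, since Myh7b fell under it, and no limit, either pseudocount and centring on the median tested gene left all counts as they were. As a ratio of reads and not per length, Myh6 to Myh7 was 1.09 in the control, 0.867 after miR-25, 0.799 after miR-106b and 1.22 after miR-93, in the same order of libraries. Depth limits Myh7b and Myom2 after miR-25 most, at 251 and 361 reads. No paired analysis was possible because each mimic has 1 library.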
